A study of Mus musculus with 15 samples.

Results

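The transcriptome of the unperturbed embryonic ventricle was read from the 7 control libraries of a series of 15. Each control library was made from ventricles of E11.5 mouse embryos of the C57BL/6 strain, and all 7 carry the genotype label control and batch label 1. 4 of them, called CDS controls, belong to a line in which loxP sites lie around exons 2 and 3 of Atf4, a transcription factor gene of the integrated stress response. The other 3, called PAS controls, belong to a line with loxP sites around the polyadenylation signal of the same gene. Deletion in either line relies on Xmlc2-Cre, which is active in cardiomyocytes, but the labels do not say which floxed alleles or Cre the controls themselves carried. The 8 knockout libraries entered only 1 alternative fit, and no knockout contrast was made.

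The labels conflict on the source, and the sample titles read heart without naming a chamber. The design text names dissected ventricles, phenol-based extraction and a stranded poly(A) kit, whereas the extraction protocol names cultured cortical neurons, a column kit and depletion of ribosomal RNA. In the counts, the 18 cardiomyocyte marker genes described below held 4.57% of all TPM, a length-scaled level, and the 10 neuron genes 0.00694%. By these marker sums the libraries are described here as heart. Total counts per library ran from 22623499 to 46472141, with 30376847, 32233043, 35057246 and 46472141 in the CDS controls and 27041436, 23100507 and 22623499 in the PAS controls. No pair of replicates agreed within sampling noise, with a chi-square per degree of freedom between 3.11 and 12.1 over 9 pairs, so each library counts as 1 sample. The design text calls the replicates biological. Among the genes that varied most, PAS control 3 was often the highest library and PAS control 2 often the lowest. Values without each are given where they matter. Atf4 itself (GRCm39 chromosome 15, 80139385 to 80141742) was present in all 7 libraries at 161 ± 13.6 TPM (a length-scaled level; SD, n = 7). It was at 167, 162, 177 and 174 in the CDS controls and at 150.4, 139.7 and 153 in the PAS controls. The lines did not overlap, but Atf4 was not among the genes called between them (adjusted p = 0.127, edgeR).

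At this stage the mouse heart already beats and pumps blood, while its muscle is still proliferating. The ventricular wall has an outer compact layer and inner sponge-like trabeculae, lined by endocardium and covered by epicardium, with valve-forming mesenchyme in the cushions. Embryonic heart muscle builds its sarcomeres from a mixture of protein variants that later become restricted to atrium, ventricle, smooth muscle or skeletal muscle, and the circulating red cells still make embryonic globins. Levels are given as TPM, a scale with the same sum in each library, which divide each count by the gene's exon length and so allow genes to be compared, or as CPM, counts scaled to the library total only, which do not. Counts were made per gene, so splice forms of a gene were not separated.

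Of 78317 genes in the tables, 23958 had a count in each of the 7 libraries and 33303 had none in any. 15353 genes reached 1 TPM in each library, 9264 reached 10, 1364 reached 100 and 86 reached 1000. The 10 most abundant genes held 16.2% ± 0.99 of all TPM (SD, n = 7), the 100 most abundant 33.6% ± 0.70 and the 1000 most abundant 61.1% ± 0.66.

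The 25 most abundant named nuclear protein-coding messages were led by contractile genes. They held 10.6% ± 0.64 of all TPM together, and 10 of them code for contractile proteins, with 5.63% ± 0.21. 6 code for parts of the translation machinery, with 2.11% ± 0.09, and 2 are embryonic globins, with 0.995% ± 0.36 and a range from 0.545% to 1.54%. Gapdh and Atp5a1, enzymes of glycolysis and of mitochondrial ATP synthesis, made up 0.551% ± 0.02. The other 5 were Hsp90ab1, a chaperone, Mest and Igf2r, which are imprinted genes, Nppa, a natriuretic peptide, and Tpt1, at 1.30% ± 0.05 together.

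Actc1, the cardiac alpha-actin of the thin filament (GRCm39 chromosome 2, 113877763 to 113884029), was the most abundant of these messages in each library. It stood at 24219, 23848.5, 22056 and 23388 TPM in the CDS controls and at 23482, 23609 and 21674 in the PAS controls. The lines overlapped and the spread was 4.08% of the mean of 23182. Myl2, the ventricular regulatory light chain of myosin, followed at 8608 ± 309 TPM (SD, n = 7). Eef1a1, the elongation factor that brings aminoacyl-tRNA to the ribosome, was at 8241 ± 398, so that these 3 genes varied by less than 5% between hearts.

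Hbb-y, an embryonic beta-type globin of the red cells, was the next gene and the least steady of the 5 leading ones. Its values were 7901, 11712, 5284 and 5877 TPM in the CDS controls and 9697, 5864 and 4434 in the PAS controls. CDS control 2 was the highest and PAS control 3 the lowest library, and the lines overlapped. Myl7, known as the atrial regulatory light chain, reached 5987 ± 845 TPM in these ventricles, with the highest value of 7322 in PAS control 2 and the lowest of 4828 in PAS control 3.

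The rest of the 25 lay between 1991 and 3505 TPM. Among them were Rplp1, a protein of the ribosomal stalk, at 3505 ± 374, the essential light chain Myl3 at 3295 ± 168 and cardiac troponin C, Tnnc1, at 3199 ± 147. Gapdh was at 3167 ± 193, Hsp90ab1 at 3160.2 ± 167 and Mest at 3139.6 ± 229.7 (SD, n = 7 each). Neighbours in the order of these 6 genes differed by less than the larger SD of the 2. Mybpc3, myosin binding protein C of the thick filament, was at 2328 ± 58.3 and Atp5a1 at 2342 ± 57.2, the smallest relative spreads of the 25, at 2.50% and 2.44% of the mean.

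**Figure D1:**
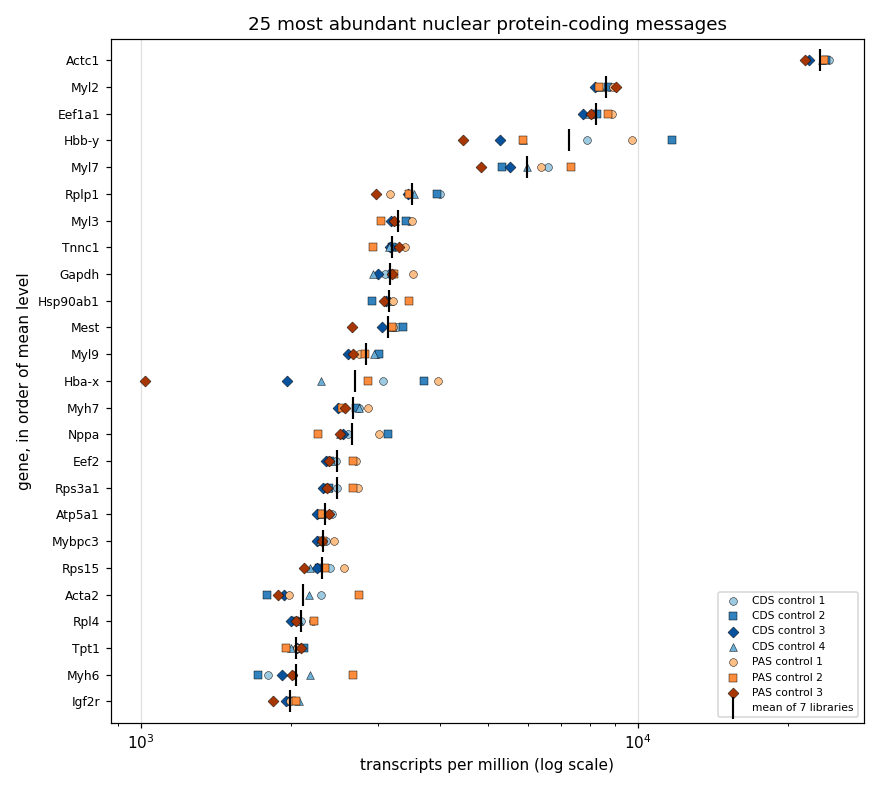
Level in TPM (horizontal, log scale) of the 25 most abundant named nuclear protein-coding genes, with a symbol for each of the 7 control libraries and a black bar for their mean. Actc1 stands alone near 23182 TPM, and the globins Hbb-y and Hba-x have the widest spread.

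Counted as fragments without regard to length, the order changed. The 5 genes with the highest CPM were mt-Co1 at 13994 ± 1132, Actc1 at 10574 ± 529.5, H19 at 7594 ± 312, mt-Cytb at 7369 ± 850.1 and Myh7 at 6473 ± 375 (SD, n = 7). H19 is a long non-coding RNA of an imprinted locus, mt-Co1 and mt-Cytb code for respiratory chain subunits, and Myh7 codes for the slow beta myosin heavy chain. Only 13 of the 25 leading TPM genes were also among the 25 leading protein-coding genes by CPM.

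The proximal promoter of Actc1 is shown because it carries a CArG box, the known binding site of serum response factor, as do 3 other sarcomere genes described here. Each line gives the last 100 bases before the RefSeq start on the sense strand of build GRCm38.p6, with the box in capitals. Acta1 is included as the skeletal muscle paralogue of Actc1 whose message was far less abundant. The motif was chosen after the sequences had been looked at. Other muscle genes were searched as well, and only windows with a box in these 100 bases are printed.
Actc1: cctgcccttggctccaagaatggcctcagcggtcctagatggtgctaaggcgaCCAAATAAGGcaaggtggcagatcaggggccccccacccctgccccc
Acta1: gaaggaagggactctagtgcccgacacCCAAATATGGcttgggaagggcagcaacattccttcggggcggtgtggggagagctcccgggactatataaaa
Myl7: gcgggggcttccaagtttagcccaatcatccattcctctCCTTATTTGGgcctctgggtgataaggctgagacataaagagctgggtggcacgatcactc
Myl3: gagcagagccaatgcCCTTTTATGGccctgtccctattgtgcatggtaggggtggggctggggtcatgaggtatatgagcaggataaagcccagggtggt
On GRCm38.p6 the windows lie on the minus strand for Actc1 at chr2:114052876-114052975, Acta1 at chr8:123894776-123894875, Myl7 at chr11:5898783-5898882, and on the plus strand for Myl3 at chr9:110763578-110763677. Counted from the start, the box begins at position -47 in Actc1, -73 in Acta1, -61 in Myl7 and -85 in Myl3. Of the 25 genes, 22 had a window of 250 bases before a start in the RefSeq table, and 4 of these (Actc1, Myl3, Myl7 and Myl9) held a CArG box. Of the 27025 genes with a RefSeq window, 1.62% held the box over the same length, and 1.54% of those at 5 CPM or more here. In the marker lists described below, 3 of 17 cardiomyocyte genes with a window held it (Actc1, Ldb3 and Myl3). It was found in 0 of 6 smooth muscle genes, 0 of 10 endothelial genes and 0 of 11 erythroid genes. The search took only the exact pattern of CC, 6 bases of A or T, and GG, so boxes with a changed base were not counted. The box reads as the same motif on both strands, and a match of letters is a description of the sequence only.

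The 13 protein genes of the mitochondrial genome, which code for subunits of the respiratory chain and ATP synthase, held 12.0% ± 1.11 of all TPM (SD, n = 7) and 4.11% ± 0.40 of all counts. All 37 genes of that genome held 12.5% of TPM, from 10.7% in PAS control 1 to 14.1% in PAS control 3. mt-Co1, the catalytic subunit of cytochrome oxidase, had the highest measured level of any gene, at 32119 ± 2245 TPM. Its values were 32432.5, 35229.5, 31008 and 32024 in the CDS controls and 29395, 29957 and 34789.6 in the PAS controls. mt-Nd1 followed at 23369 ± 2170.3, mt-Cytb at 22840.2 ± 2449.6 and mt-Nd2 at 12332 ± 1413.

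6 of the 13 lay far below the others although the genome is transcribed as long joint precursors. mt-Co2, mt-Co3, mt-Nd3, mt-Atp6, mt-Atp8 and mt-Nd4l summed to 38.5 TPM, from 30.4 to 48.0, and mt-Nd4l was the lowest at 2.86 ± 1.56, whereas the lowest of the other 7, mt-Nd4, stood at 7010 ± 723. On chromosome 1 of GRCm39, 7 genes between 24650616 and 24655278, where the nuclear genome holds a near-identical copy of a stretch of the mitochondrial genome, had counts as well, led by Gm28437 at 4.50 ± 0.48 CPM and Gm10925 at 3.26 ± 0.42. The counting command set no option to count fragments that map to several places, and mt-Atp8 overlaps mt-Atp6 as mt-Nd4l overlaps mt-Nd4. Levels of these 6 genes are therefore uncertain, and so are the share of the mitochondrial genome and the leading rank of mt-Co1. The part of shared fragments in the 6 genes was not tested. mt-Nd6, the protein gene on the other strand, was listed at 11795 ± 1529.9 TPM, which cannot be told apart from fragments of opposite transcripts because strand was not separated. The 85 ribosomal protein genes of the nucleus held 6.19% ± 0.24 of TPM.

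A fixed pair of paralogues was compared within each library for 52 gene families of muscle, channels, transcription factors and metabolism. 50 pairs had counts of both genes in all libraries, and in 47 of them the same gene led in all 7. The difference of each pair was tested with a two-sided exact sign-flip permutation test over the 7 log2 ratios, whose smallest possible p is 0.0156. The 47 pairs reached this p, and with Benjamini-Hochberg adjustment over the 50 pairs the values ran from 0.0166 to 0.125. The pairs were chosen with earlier results of these data known, and a gene's length is the same in all libraries. The test therefore covers the spread between hearts and not an error in the gene lengths. The mean ratio was over 10-fold in 17 pairs and under 2-fold in 12. In CPM, which leave out gene length, 4 pairs turned in direction: Myl3 and Myl4 (-0.33), Tead1 and Tead2 (1.35), Pgam1 and Pgam2 (0.13), and Fabp3 and Fabp5 (-0.0181, log2 of the first over the second).

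The myosin heavy chains of heart muscle were expressed side by side. Myh7, the slow beta chain, stood at 2746, 2707, 2494 and 2739 TPM in the CDS controls and at 2865, 2533 and 2571 in the PAS controls. Myh6, the fast alpha chain that dominates the adult mouse ventricle, stood at 1800.2, 1722, 1926 and 2192 TPM in the CDS controls and at 2024, 2675 and 2010.2 in the PAS controls. Myh7 led in 6 of 7 libraries and Myh6 led in PAS control 2, with a mean log2 ratio of Myh6 to Myh7 of -0.39 ± 0.24 (SD, n = 7; exact permutation test, p = 0.0312). Leaving out any 1 library other than PAS control 2 left an adjusted p between 0.0625 and 0.0638. The order in PAS control 2 depends on the gene length used. In CPM, without length, Myh7 led there as well, at 6051 against 4988 for Myh6. Myh7 made up 50.8% ± 3.66 of the family's TPM. Myh10 and Myh9, the non-muscle heavy chains, were at 343 ± 16.1 and 109 ± 8.13, and Myh7b at 93.5 ± 4.80. The skeletal chains Myh3 and Myh8 and the smooth muscle chain Myh11 stayed under 1 TPM.

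Light chains known from atrium and ventricle were likewise both abundant. Myl2 exceeded Myl7 in all 7 libraries by 0.54 ± 0.23 on the log2 TPM scale (exact permutation test, p = 0.0156, n = 7), with the smallest difference of 0.19 in PAS control 2 and the largest of 0.90 in PAS control 3. Myl3, the ventricular essential light chain, exceeded Myl4, the atrial and embryonic form, by 0.85 ± 0.07, with Myl4 between 1639 and 1997 TPM. Myl9, a regulatory light chain of smooth muscle and non-muscle myosin, was at 2831 ± 159.8, the skeletal essential chain Myl1 at 231 ± 41.9 and the non-muscle Myl6 at 552 ± 16.0.

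In the thin filament, the embryonic slow skeletal troponin I, Tnni1, led the cardiac form Tnni3. Tnni1 was at 1591, 1558, 1445 and 1445 TPM in the CDS controls and at 1493, 1443 and 1381 in the PAS controls, and Tnni3 at 829, 845, 793 and 760.5 and at 884, 697 and 871. The 2 genes did not overlap in any library, with a log2 ratio of Tnni3 to Tnni1 of -0.87 ± 0.13 (exact permutation test, p = 0.0156, n = 7). For troponin T the cardiac gene Tnnt2 led at 1829.9 ± 130.1 TPM, with the slow skeletal Tnnt1 at 257 ± 60.1, from 164 in PAS control 2 to 364 in PAS control 3. Troponin C came from Tnnc1 alone, with Tnnc2 at 0 in 5 libraries and under 0.27 TPM in the others.

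Actin choice was more one-sided. Actc1 held 89.1% ± 1.39 of the 4 muscle actins, and its ratio to Acta1 was 5.02 ± 0.25 on the log2 scale, which is 32.5-fold, the same sign in all 7 libraries. Acta1, the skeletal actin, was nevertheless at 725 ± 139 TPM and Acta2, the smooth muscle actin, at 2117 ± 324, both highest in PAS control 2 with 921 and 2739. The coding sequences of these genes are nearly the same, so fragments shared between them make each level uncertain. Among the other filament proteins Tpm1 was at 1429 ± 43.6 TPM (69.8% of the tropomyosins), Actn2 at 1455 ± 35.6 (78.9% of the alpha-actinins), Mybpc3 made up 99.8% of its family and Myom1 99.9%.

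Calcium handling was served mainly by the cardiac members, with an exception in calsequestrin. Atp2a2, the calcium pump of the sarcoplasmic reticulum, was at 1100.4 ± 39.8 TPM and 99.5% of its family. Pln, the phospholamban gene that restrains this pump, was at 269 ± 23.8, whereas Sln, its atrial counterpart, lay between 0 and 1.68. The ryanodine receptor Ryr2, through which stored calcium leaves, was at 83.1 ± 5.81 and Ryr3 at 3.78 ± 0.69. Slc8a1, the sodium-calcium exchanger, was at 496 ± 16.2 and 98.4% of its family.

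Casq1, the skeletal muscle calsequestrin that stores calcium, exceeded the cardiac form in each library. Casq1 was at 376, 324, 341 and 305 TPM in the CDS controls and at 334, 369 and 305 in the PAS controls. Casq2 was at 89.2, 131, 121 and 94.9 in the CDS controls and at 108, 62.5 and 209.6 in the PAS controls. The log2 ratio of Casq2 to Casq1 was -1.61 ± 0.63 (exact permutation test, p = 0.0156, n = 7), and it ran from -2.56 in PAS control 2 to -0.54 in PAS control 3, so the size of the lead differed widely between these hearts.

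Channels of pacemaker currents were expressed beside those of working muscle. The T-type calcium channel Cacna1h, at 70.1 ± 9.69 TPM, exceeded Cacna1g, at 4.00 ± 2.13, by 4.30 ± 0.90 on the log2 scale, and stood near the L-type channel Cacna1c at 58.6 ± 3.86. Hcn4, the main pacemaker channel, was at 41.2 ± 7.25 with Hcn2 and Hcn3 each averaging under 1 TPM. Kcnj5, a subunit of the acetylcholine-gated potassium channel, led the inward rectifiers at 85.7 ± 11.6, above Kcnj11 at 39.2 ± 4.05, Kcnj3 at 15.8 ± 2.12 and Kcnj2, the channel of the resting potential, at 11.5 ± 2.88. Of the connexins, Gja1 was at 186 ± 17.1, Gja5 at 155 ± 13.8 and Gjc1 at 61.2 ± 4.77.

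The natriuretic peptides, which mark trabecular muscle, were abundant, with Nppa at 2659 ± 308 TPM and Nppb at 731 ± 153. Nppb read 708, 956, 845 and 838 in the CDS controls and 609, 619 and 539 in the PAS controls, groups that did not overlap. The difference was not called in the fit across all genes described further on (edgeR's quasi-likelihood test, log2 difference of -0.54 ± 0.10 SE, Benjamini-Hochberg adjusted p = 0.204).

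Of the transcription factors of the heart, Gata4 led its family at 297 ± 14.8, with Gata6 at 65.9 ± 4.20, Gata5 at 55.4 ± 9.04 and Gata2, a factor of blood and endothelium, at 14.4 ± 1.90. Hand2 exceeded Hand1 in all 7 libraries, at 135 ± 5.06 against 65.7 ± 8.69, a log2 ratio of Hand1 to Hand2 of -1.05 ± 0.22 (exact permutation test, p = 0.0156, n = 7). Tbx20 was at 169 ± 22.5, Tbx5 at 65.8 ± 4.89 and Tbx18, an epicardial factor, at 63.4 ± 1.67. Tbx2 and Tbx3, repressors of working-muscle genes, were at 12.3 ± 3.34 and 9.82 ± 3.45, and Tbx1 had no count in any library.

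Of the MEF2 factors, Mef2d was at 115 ± 6.87 TPM, Mef2a at 57.8 ± 3.26 and Mef2c at 39.9 ± 0.92. The order of the first 2 depends on the gene length used, since in CPM, without length, Mef2a was at 239 and Mef2d at 195. Hey2, the Notch-related repressor of compact muscle, was at 94.5 ± 7.61 and Hey1 at 13.6 ± 2.83. Irx4, a ventricular Iroquois factor, was at 119 ± 6.44, and its 5 relatives lay between 14.0 and 47.3. Tead2 and Tead1, partners of the Hippo pathway effectors, were at 132 ± 6.25 and 119 ± 10.2, and Tead2 led in 6 of 7 libraries by 0.15 ± 0.08 on the log2 scale (exact permutation test, p = 0.0312, n = 7). When 1 library other than PAS control 2 was left out, the adjusted p of this pair was 0.0625 or 0.0638.

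D cyclins, which drive cells into division, were abundant. Ccnd2 was the most abundant D cyclin at 215 ± 21.7 TPM, with Ccnd3 at 126 ± 6.46 and Ccnd1 at 109.9 ± 5.80. Mycn, at 53.6 ± 4.94, exceeded Myc, at 27.0 ± 2.74, in all 7 libraries. The lamin of the nuclear envelope was mainly Lmnb1, at 344 ± 18.9, with Lmna, which rises as tissues stiffen and mature, at 37.8 ± 2.89 and a log2 ratio to Lmnb1 of -3.19 ± 0.08.

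Energy metabolism combined glycolytic and oxidative genes. Slc2a1, the glucose transporter of fetal tissue, was at 553 ± 109 TPM, 90.0% ± 0.88 of its family, while the insulin-responsive Slc2a4 was at 31.8 ± 2.47. Slc2a1 was highest in PAS control 2 at 770.4 and lowest in PAS control 3 at 430.4. Hk1 led Hk2, at 240.0 ± 27.7 against 95.2 ± 14.9, and Ldha led Ldhb, at 1225 ± 92.0 against 816 ± 86.1. Pfkl and Pfkm, at 185 ± 20.3 and 172 ± 7.60, differed by 0.10 ± 0.14 on the log2 scale, which did not pass the test (exact permutation test, p = 0.125, n = 7). The size of this difference depends on the gene length used, since in CPM, without length, Pfkl was at 348 and Pfkm at 162.

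Of the muscle or heart forms named here, Pgam2, Fabp3 and Slc25a4 led their pairs, and Eno3, Ckm and Cox6a2 did not. The leads of Pgam2 and Fabp3 depend on the gene length used, since both pairs turned in CPM, without length. Pgam1 was then at 238 CPM and Pgam2 at 217. Pgam2, the muscle phosphoglycerate mutase, was at 916 ± 51.4 TPM against 426 ± 35.1 for Pgam1. Eno1 was at 902 ± 50.6, with the muscle enolase Eno3 at 279 ± 16.5. Ckb, the brain-type creatine kinase, was at 270.0 ± 30.1 and the muscle-type Ckm at 7.01 ± 4.53. Of cytochrome oxidase subunits, Cox6a1 exceeded the muscle form Cox6a2 by 1.13 ± 0.07 on the log2 scale, Cox7a2 exceeded Cox7a1 by 3.47 ± 0.16, Cox8a exceeded Cox8b by 5.12 ± 0.56 and Cox4i1 exceeded Cox4i2 by 5.99 ± 0.47. Fabp3, the heart fatty acid binding protein, was at 648 ± 41.9, and Fabp5 at 152 ± 13.2. Slc25a4, the adenine nucleotide carrier of heart and muscle, was at 1812 ± 44.5, ahead of Slc25a5 at 1151 ± 46.4.

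**Figure D2:**
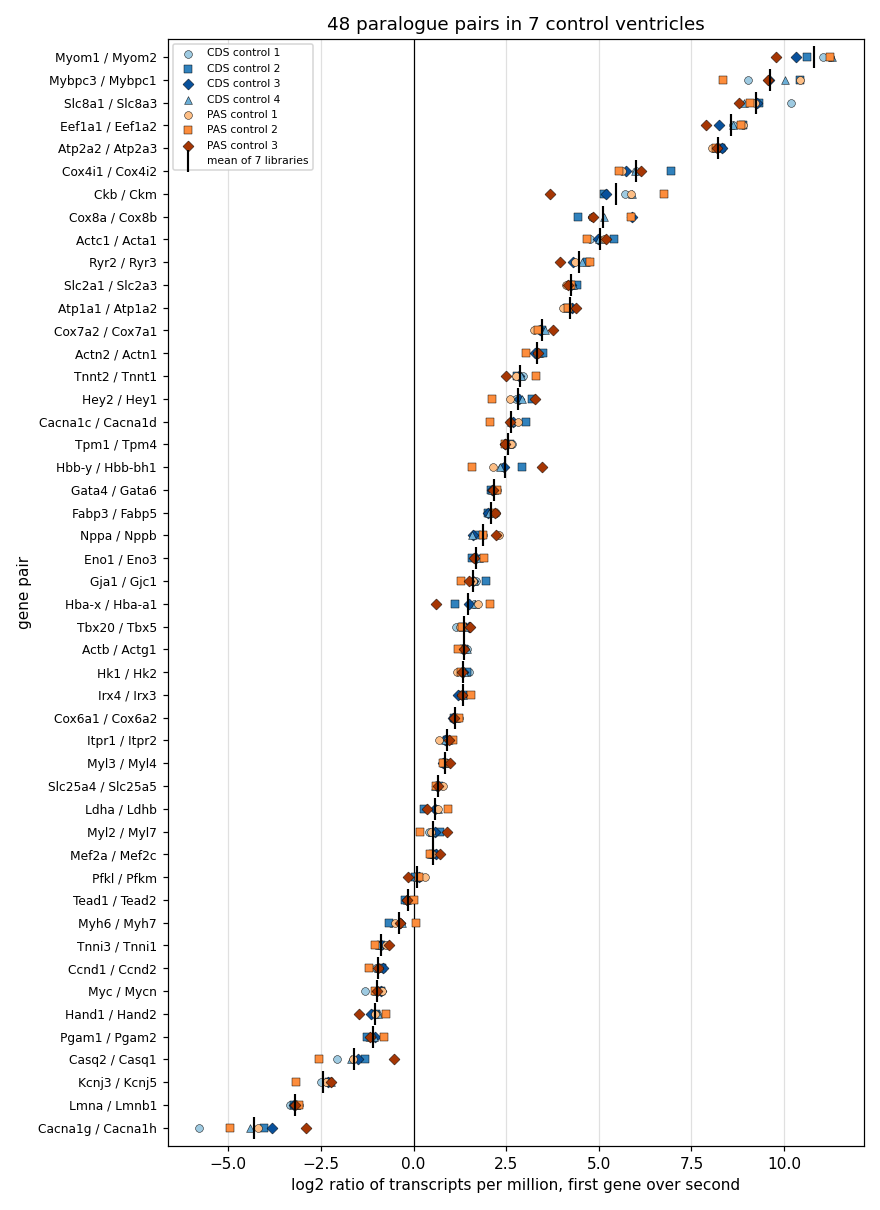
Log2 ratio of TPM, first gene over second (horizontal), for 48 of the paralogue pairs (rows), with a symbol for each of the 7 control libraries and a black bar for their mean. The symbols of 45 pairs lie on 1 side of 0, and those of Myh6 and Myh7, Tead1 and Tead2, and Pfkl and Pfkm cross it.

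The share of each lineage was described by summing the TPM of 21 marker lists. These sums are shares of messages and not of cells, and in bulk tissue fewer cells of a type and less RNA per cell cannot be told apart. Several lists share genes or hold genes that embryonic cardiomyocytes also use. The 18 cardiomyocyte genes held 4.57% ± 0.12 of all TPM (SD, n = 7), from 4.40% to 4.70%, and 2.25% ± 0.05 without Actc1. The lowest of the 18, Ryr2, was at 75.6 TPM or more in each library, and Nkx2-5, an early cardiac homeobox factor, was at 269.5 ± 12.8. The ventricular genes Myl2 and Irx4 were present in all libraries. Of the 8 genes of the atrial list, Myl7, Nppa and Myl4 were abundant, at means of 5987, 2659 and 1830 TPM, and Tbx5 was at 65.8. Nr2f2, Stard10, Nr2f1 and Sln were lower, at 12.4, 9.96, 3.32 and 0.31.

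The trabecular list held 0.478% ± 0.05 of TPM, of which Nppa gave 55.6%, with Cited1 at 901 ± 87.7 and Bmp10, a growth factor of trabecular muscle, at 235 ± 20.4. The compact list held 0.953% ± 0.03, of which Myl2 gave 90.3%, and without it 0.092% ± 0.004. The 8 atrial genes held 1.06% ± 0.09, almost all from Myl7, Nppa and Myl4, which the ventricle is also known to use at this stage. The part of atrial tissue in this sum was not tested. The conduction list summed to 0.0153% ± 0.003, led by Cacna2d2 at 85.9 ± 16.6, and Isl1, a factor of sinus node and second heart field, was at 0.26 ± 0.22. The outflow list summed to 0.0174%, 77.8% of it from Hand2.

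Endothelium and endocardium, the lining of vessels and heart chambers, held 0.178% ± 0.009 of TPM over 16 genes. Plvap was the highest at 352 ± 47.6, followed by Eng at 259 ± 16.4, Cdh5 at 247 ± 13.5 and Tie1 at 149 ± 8.0. The sum lay between 0.176% and 0.184% in 6 libraries and at 0.158% in PAS control 3, where Plvap read 258 TPM against 346 to 409.5 in the others. Markers of coronary and lymphatic endothelium summed to 0.00852%, and Prox1, which cardiomyocytes also express, gave 53.2% of that.

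Epicardium, the outer cell layer, held 0.0564% ± 0.005 of TPM over 12 genes, with Upk3b at 139.9 ± 23.2, Krt19 at 84.8 ± 11.2, Tbx18 at 63.4 ± 1.67 and Aldh1a2, which makes retinoic acid, at 50.6 ± 3.40. Wt1 was at 25.4 ± 1.87. Cushion mesenchyme, the precursor of the valves, held 0.130% ± 0.02, from 0.1004% in CDS control 1 to 0.148% in PAS control 3. Vcan, a matrix proteoglycan, was at 437 ± 62.9, Col3a1 at 221 ± 21.8, Col1a1 at 171 ± 41.3 and Fbln2 at 112 ± 9.48.

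The smooth muscle list held 0.256% ± 0.03, but Acta2 gave 82.8% of it and Cnn1, at 342 ± 15.4, most of the rest. Myh11, a defining gene of mature smooth muscle, was at 0.50 ± 0.18 TPM and Tagln at 6.18 ± 1.07. Acta2 and Cnn1 are known to be expressed by embryonic heart muscle, so the list says little about smooth muscle cells here.

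Among the lists of non-muscle cells, the erythroid list held the largest share of messages, which is not a share of cells. The 14 erythroid genes held 1.31% ± 0.46 of TPM, with 1.44%, 2.01%, 0.958% and 1.08% in the CDS controls and 1.80%, 1.20% and 0.713% in the PAS controls. The lines overlapped, and the highest library had 2.81 times the level of the lowest. The 13 macrophage genes summed to 0.0106%, from 0.00693% in PAS control 2 to 0.0144% in CDS control 2, with Lyz2 at 56.2 ± 9.64 TPM and Cd68 next at 12.1 ± 0.985. The 8 megakaryocyte genes, led by Pf4 at 18.5 ± 3.96 and Itgb3 at 17.0 ± 2.37, summed to 0.00616%.

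**Figure D3:**
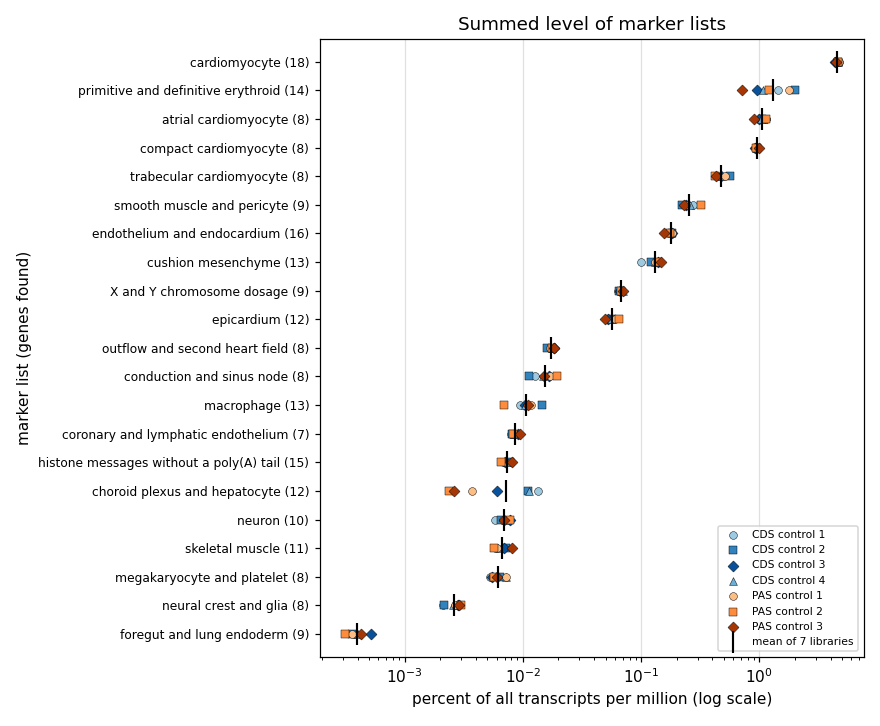
Summed TPM of each marker list as a percent of all TPM (horizontal, log scale), with a symbol for each of the 7 control libraries and a black bar for their mean, in order of the mean. The choroid plexus and hepatocyte list is the only 1 of the 21 whose 4 CDS values, from 0.00608% to 0.0135%, lie above all 3 PAS values, from 0.00235% to 0.00372%.

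Markers of neighbouring or foreign tissues summed to small shares, although single members were clearly detected. The 10 neuron genes summed to 0.00694%, and 69.6% of this came from Gap43 at 48.4 ± 3.66, with Tubb3 at 11.5 ± 5.09 and Dcx, Snap25 and Stmn2 each under 1 TPM on average. Of the neural crest and glia list Erbb3 was at 14.2 ± 2.88 and Ngfr at 3.57 ± 0.86, while Sox10, its defining factor, was under 1 TPM in all libraries. Lung and foregut endoderm gave 0.000392%, with Nkx2-1 and Shh at 0 in all libraries, which allows up to 0.0646 to 0.133 CPM in a library (3 counts of its total, counting error only). The skeletal muscle regulators Myod1, Myog, Pax3 and Pax7 stayed under 1 TPM and Myf5 had no count, although Tnni2, a fast skeletal troponin I, was at 44.3 ± 5.46 and Tnnt3 at 9.69 ± 1.38. The list of histone genes whose messages are classed as lacking a poly(A) tail summed to 0.00735% ± 0.0006, similar in the 2 lines. Hist1h1c was the highest at 29.2 ± 4.32, followed by Hist1h2bc at 21.5 ± 3.23 and Hist1h4i at 15.9 ± 1.83. Only 4 of its 15 genes averaged 1 TPM or more, and Hist2h3c1 was at 0. Whether the messages counted carried a tail was not measured.

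Ttr, the thyroxine carrier made by choroid plexus, liver and yolk sac, was the widest of these differences. It read 103, 78.6, 34.1 and 79.9 TPM in the CDS controls and 1.56, 2.24 and 0.798 in the PAS controls. Enpp2, an enzyme also strong in choroid plexus, read 9.81, 8.59, 3.83 and 8.06 and then 0.868, 0.486 and 0.928. Both genes were higher in every CDS control than in any PAS control, but neither was called by edgeR's quasi-likelihood test over all genes, with log2 differences of -5.61 ± 0.68 and -3.34 ± 0.47 (SE) and Benjamini-Hochberg adjusted p of 0.161 and 0.173. Of the defining liver genes Alb was at 0.03 ± 0.03 TPM and Fgb and Serpina1a had counts in 1 library each, and the choroid genes Kl and Folr1 were at 0.29 ± 0.14 and 1.70 ± 0.50. The part of other tissue in this difference was not tested.

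Y-linked messages were present in all 7 libraries. Ddx3y, a Y-linked RNA helicase, read 55.8, 60.5, 58.9 and 63.7 TPM in the CDS controls and 55.9, 49.9 and 61.7 in the PAS controls, and its X-linked partner Ddx3x was at 329 ± 11.9. Eif2s3y was at 55.8 ± 9.77, Kdm5d at 13.4 ± 0.71 and Uty between 11.5 and 13.6, and their X-linked partners Eif2s3x, Kdm5c and Kdm6a were at 93.6 ± 3.53, 89.0 ± 3.46 and 21.6 ± 0.63. Xist, the RNA of the inactive X chromosome, stayed between 0.0348 and 0.276 TPM. By these genes all 7 libraries have the pattern of male tissue, so the levels given here are not those of female hearts.

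Variation between hearts of a line was measured as the coefficient of variation (CV) that remained after counting error was taken off. Over 11321 genes at 5 CPM or more its median was 4.64%, with quartiles of 2.698% and 7.199%, and 260 genes (2.30%) were above 20%. The erythroid and cushion mesenchyme lists held more such genes than the cardiomyocyte list or the endothelial list. Of 12 erythroid genes at this level 11 were above 20%, with a median of 41.4%, and of 13 cushion genes 8, with a median of 26.2%. None of 18 cardiomyocyte genes and none of 15 endothelial genes was, with medians of 6.42% and 6.00%, and 2 of 12 epicardial genes were. That epicardial count was 5 without CDS control 1, without CDS control 4 or without PAS control 1, and 1 without PAS control 2. Of 140 members of the paralogue families at this level, which include muscle genes and globins, 24 (17.1%) were above 20%. In shorter lists it was 2 of 3 macrophage genes, 2 of 3 neuron genes and 2 of 4 conduction genes. It was also 3 of 3 choroid plexus and hepatocyte genes, 1 of 3 coronary and lymphatic genes and 1 of 2 skeletal muscle genes. None was above 20% in the trabecular, compact, atrial, outflow, smooth muscle, megakaryocyte, neural crest, histone or X and Y lists.

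**Figure D4:**
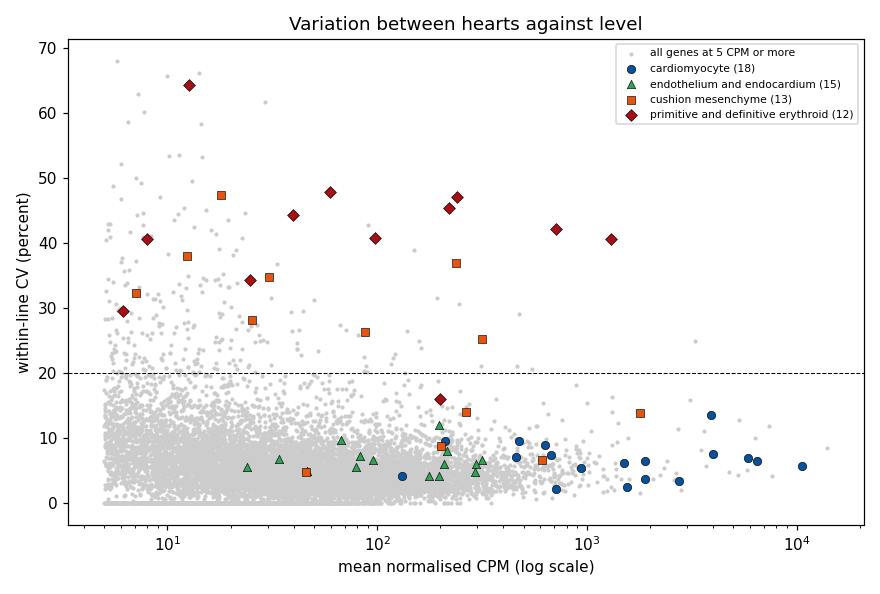
Within-line CV in percent (vertical) against mean normalised CPM (horizontal, log scale) for 11321 genes at 5 CPM or more in 7 control libraries, with 4 marker lists in colour and a dashed line at 20%. Erythroid and cushion genes reach 64.2% and 47.4%, while the 18 cardiomyocyte and 15 endothelial genes lie under the line.

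The 20 named genes with the highest CV ranged from 45.3% (Mgp) to 67.9% (Ckm). 5 of them code for proteins of the extracellular matrix (Thbs2, Tnxb, Tnc, Lum and Mgp) and 4 for globins (Hbb-bs, Hbb-bh1, Hba-a1 and Hba-a2). Thbs2, a matrix glycoprotein, was at 9.31, 15.6, 11.5 and 9.31 normalised CPM in the CDS controls and at 12.2, 6.90 and 33.9 in the PAS controls. Lum, a collagen-binding proteoglycan, was at 9.68, 17.4, 24.0 and 16.2 and then at 16.5, 10.1 and 32.5. PAS control 3 was the highest library for both. Tnc, tenascin C, had a different order, with 23.2, 11.3, 27.9 and 19.4 in the CDS controls and 14.8, 69.0 and 38.7 in the PAS controls, the highest in PAS control 2.

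Ckm, the muscle creatine kinase, was at 4.80, 6.43, 5.67 and 3.68 normalised CPM in the CDS controls and at 3.94, 2.27 and 13.5 in the PAS controls. Cacna1g, the minor T-type channel, was lowest in CDS control 1 at 3.98 and highest in PAS control 3 at 22.8. Mrc1, the mannose receptor of macrophages, was at 1.44 in PAS control 2 against 4.84 to 11.8 in the other 6. Slc38a5, an amino acid transporter, was at 13.8 in PAS control 3 against 2.84 to 7.29, and Car4, a carbonic anhydrase, at 11.1 in PAS control 2 against 3.69 to 5.89. Aldh1a1, a retinaldehyde dehydrogenase, ran from 2.50 in PAS control 3 to 10.9 in PAS control 2, and Hsd3b6 was highest in CDS control 2 at 20.7.

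PAS controls 2 and 3 held many of these extremes. Among the 260 genes above 20%, PAS control 3 was the highest library for 112 (43.1%) and PAS control 2 the lowest for 89 (34.2%), and 63 (24.2%) had both at once. Over all 11321 genes these shares were 18.9%, 19.1% and 5.87%. PAS control 3 was the lowest library for 68 of the 260 (26.2%), PAS control 2 the highest for 59 (22.7%) and CDS control 1 the lowest for 66 (25.4%), against 20.4%, 21.7% and 11.6% of all genes. The reverse, PAS control 2 highest and PAS control 3 lowest, held for 34 of the 260 (13.1%) and for 6.28% of all genes. The 260 genes were chosen for their spread within a line. A library far from the others of its line brings a gene into this set, so these shares are a description only. With the minimum of 5 CPM applied again to the 6 libraries that remain, the number of genes above 20% was 174 without PAS control 3, and 10 of the 20 leading genes stayed among the leading 20. Without PAS control 2 these were 204 and 12. Among the list genes used above, the erythroid median fell to 30.1% without PAS control 3 and the cushion median to 20.5% without CDS control 1, and both lists remained above the median of all genes.

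**Figure D5:**
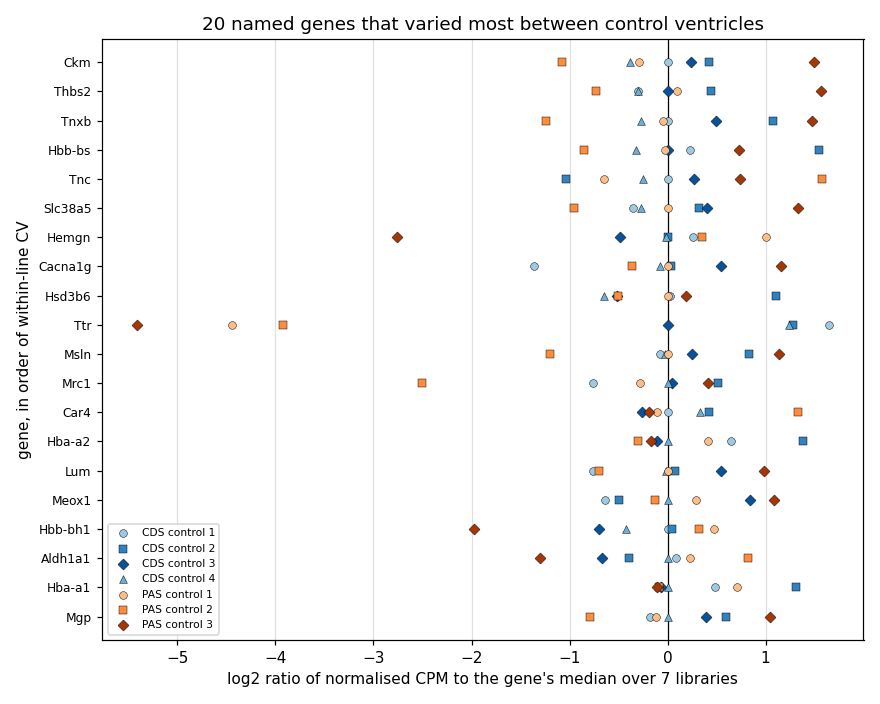
Log2 ratio of each library's normalised CPM to the gene's median over the 7 control libraries (horizontal) for the 20 named genes with the highest within-line CV (rows, in order), with a symbol for each library. PAS control 3 is the highest library for 9 genes and PAS control 2 the lowest for 9, and Ttr separates the 3 PAS controls from the 4 CDS controls.

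PAS control 2 was also at 1 end for several muscle genes. Myh6, Myl7, Acta2, Acta1, Slc2a1, Hcn4 and Kcnj5 were highest in PAS control 2, where Casq2, Tnnt1 and Ckm were lowest. PAS control 3 had the highest Casq2, Tnnt1 and Ckm and the lowest Slc2a1 and Myl7, while CDS control 2 had the lowest Myh6, Acta2, Acta1, Hcn4 and Kcnj5. The within-line CV was 13.5% for Myh6, 15.3% for Myl7, 16.3% for Acta2 and 42.7% for Casq2, against 5.64% for Actc1, 4.80% for Myl2 and 6.35% for Myh7. The labels give no finer stage for these embryos, and its part in this spread was not tested.

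Globins varied in kind as well as in amount. In mouse primitive red cells Hbb-bh1 and Hba-x are known to be made early, and Hbb-y and the adult Hba-a1 rise after them. Hbb-bh1 was at 1517, 1545, 966 and 1161 TPM in the CDS controls and at 2181, 1952 and 398 in the PAS controls, lowest by a wide margin in PAS control 3. Hba-x was at 3064, 3709.9, 1968 and 2300.1 and then at 3950.4, 2861 and 1019, lowest in the same library. Hba-a1 was at 985, 1714, 695 and 722 and then at 1188, 681 and 674, so that PAS control 3 did not stand apart for the adult gene.

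The log2 ratio of Hbb-y to Hbb-bh1 was 2.47 ± 0.60 (SD, n = 7), lowest in PAS control 2 at 1.59 and highest in PAS control 3 at 3.48. That of Hba-x to Hba-a1 was 1.47 ± 0.48, highest in PAS control 2 at 2.07 and lowest in PAS control 3 at 0.60. Both ratios put the same 2 libraries at the ends, with relatively more of the earlier-made globin in PAS control 2 and less in PAS control 3. Hemgn, an erythroid nuclear protein, was at 2.02 normalised CPM in PAS control 3 against 9.82 to 27.6 in the other 6. The adult beta genes Hbb-bt and Hbb-bs, at 198 ± 83.0 and 57.9 ± 34.1 TPM, and the alpha genes Hba-a1 and Hba-a2 are near-identical pairs, so the level of each member is uncertain.

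Within the cushion list the members differed. Twist1, a factor of mesenchymal cells, was at 26.3, 51.4, 95.9 and 78.9 TPM in the CDS controls and at 66.8, 76.7 and 70.7 in the PAS controls, lowest in CDS control 1. Postn, periostin of the valve matrix, was at 41.4, 86.4, 123 and 96.8 and then at 102, 74.2 and 152, again lowest in CDS control 1. Dcn, Col3a1 and Fbln2 had CVs of only 4.76%, 6.57% and 8.66%, so the list did not move as a block. CDS control 1 was also the lowest library for Tubb3, at 3.02 TPM against 6.89 to 17.0 in the others.

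At the other end, 1060 of the 11321 genes had no variation left after counting error, so they cannot be ranked among themselves. Of the named ones at 20 CPM or more, the first in identifier order included Mcts1, Trappc10, Wdr77, Usp32, Dlg3, Mapk7, Epn2, Snrnp27 and Rrp15. Usp32, a ubiquitin-specific protease gene, lay between 67.5 and 71.3 normalised CPM in all 7 libraries, with overlapping lines.

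The control hearts of the 2 lines were compared to see how much of this variation went with the line. In edgeR's quasi-likelihood fit of the 7 libraries over 19050 genes, 10 genes (0.0525%) were called at a Benjamini-Hochberg adjusted p under 0.05, 1 higher and 9 lower in the PAS controls. None of the 333 tested genes of the families, lists and rankings was called, and 1596 of the 19050 genes had an unadjusted p under 0.05. Rps27, a ribosomal protein gene, was at 268 ± 11.7 CPM in the CDS controls (SD, n = 4) and 206 ± 8.19 in the PAS controls (n = 3), a log2 difference of -0.38 ± 0.05 (SE; adjusted p = 0.00965). mt-Tp, a mitochondrial tRNA gene, was at 38.9 ± 3.58 and 23.6 ± 2.32, a difference of -0.72 ± 0.08 (adjusted p = 0.00575).

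Most of the other named ones are pseudogenes or predicted genes. Gm6477 was at 4.83 ± 0.75 CPM in the CDS controls and at 0.837 ± 0.04 in the PAS controls, Gm13577 at 12.2 ± 0.82 and 5.95 ± 0.90, and H3f3a-ps1 at 3.51 ± 0.51 and 1.10 ± 0.25. Rpl18-ps2 was the 1 gene that was higher in the PAS controls, at 3.87 ± 0.43 against 1.46 ± 0.31. Reads of such copies can be exchanged with their parent genes, so their levels are uncertain. The file headers place the counts of the 2 lines in separate folders, and line and any difference in handling cannot be told apart. The number of calls was 24 without PAS control 3, 5 without PAS control 2, and 6 without PAS control 1 or without CDS control 4.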

How the data were processed

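The 7 control libraries were analysed from tables of raw fragment counts per gene that the authors deposited, 1 per library. Per the file headers, featureCounts 2.1.1 counted read pairs over exons by gene identifier with GENCODE M37 (GRCm39) and with no option for strand or for multi-mapping fragments. The submitters' processing notes also list fastp, FastQC, HISAT2 2.2.1, STAR 2.7.11b and DESeq2. Which aligner made these counts is not given in the sources used here.

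Gene names came from GENCODE M21 by identifier, for 51536 of 78317 genes with 99.19% of counts. TPM used the deposited exon length. Control libraries of the lines were compared with edgeR 4.0.16 (R 4.3.3, limma 3.58.1; TMM, filterByExpr with a minimum count of 10, quasi-likelihood test, Benjamini-Hochberg adjustment over 19050 genes), which was also tested on simulated data. DESeq2 1.42.0 served as an alternative. Paralogue pairs were tested with exact two-sided sign-flip permutations. The within-line CV is the SD between hearts of a line after counting error is removed, over the mean, for genes at 5 CPM or more. Python 3.11.15, pandas 2.3.3, numpy 2.4.6 and scipy 1.17.1 were used.

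Members and lists were chosen with earlier results of these data known. The genes named are the 25 named nuclear protein-coding genes of highest TPM and the 5 of highest CPM, the mitochondrial genes as a group, members of the fixed families at 1 TPM or more, up to 4 leading members of each list with those at 0, the 20 most and 10 least variable named genes (the latter at 20 CPM or more, ties in identifier order), and genes called between lines. Other members of the families and lists, Atf4 and the imprinted genes were picked after their values were seen. Alternatives were another gene length, CPM, a pseudocount of 1 TPM, other scaling, filters and tools, and leaving out each library. The list symbols Apj, Ahsp and Strit1 were not found among the names. A few genes that the rule covers are not reported here.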

Additional observations from a re-analysis of the deposited data

Results flagged for a closer look

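Of 114 values with a reading in each of the 7 control libraries, 14 had their highest or lowest library separated from the nearest other by more than the 95% critical value of Dixon's test for 7 values, taken as the gap over the whole range. Chance flags about 1 in 20 of such values when they are not chosen for their spread. Of the 114, 20 were genes chosen for the highest CV, and these gave 6 of the 14, so the count is not set against that rate. The share of the endothelium and endocardium list was 0.158% in PAS control 3 against 0.176% to 0.184% in the others. Ckm at 13.5, Thbs2 at 33.9 and Slc38a5 at 13.8 normalised CPM were each highest in PAS control 3.

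PAS control 2 stood apart with Car4 at 11.1 normalised CPM and in 4 log2 ratios: 1.19 for Actb to Actg1, -3.17 for Kcnj3 to Kcnj5, 1.55 for Irx4 to Irx3 and 0.0207 for Tead1 to Tead2. In CDS control 2, Hsd3b6 was at 20.7 and Hba-a2 at 119 normalised CPM, and the log2 ratio of Cox4i1 to Cox4i2 was 6.94. In CDS control 1 the log2 ratio was -1.31 for Myc to Mycn and 10.17 for Slc8a1 to Slc8a3.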

How the results depend on the processing

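Of the 25 leading messages, 19 stayed with the length of the longest transcript and 13 in CPM without length, and each library left out kept 25. The same gene led in all libraries in 47 pairs, and in 50 with the longest transcript, 48 in CPM, 49 with a pseudocount and 47 to 49 without a library. In CPM the log2 ratio turned to -0.33 for Myl3 to Myl4, 1.35 for Tead1 to Tead2, 0.13 for Pgam1 to Pgam2 and -0.0181 for Fabp3 to Fabp5. Lists at 0.1% of TPM or more numbered 8, and 5 without the most abundant member of each. Genes above 20% CV numbered 260, 75 with a minimum of 20 CPM (4 of the 20 leading genes shared) and 174 to 329 without a library, with the minimum applied again. Genes called between lines numbered 10, but 163 with no filter on low counts (39 higher in the PAS controls), 50 with DESeq2 (12 higher) and 29 with all 15 libraries (7 higher). Without a library they ranged from 5 to 24. With a replicate block 2 genes were called; same-numbered libraries had correlations of 0.124, -0.33 and 0.266, so the numbers share only a name and do not pair hearts. The cause of these shifts was not tested. Gene lengths, near-identical copies, unseparated strands and 3 or 4 hearts a line limit precision.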

Other observations

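Imprinted genes, which are expressed from 1 parental allele and include regulators of fetal growth, were read from a list of 18, made after their levels had been seen, so their share is only a description. They held 2.36% ± 0.05 of all counts (SD, n = 7), between 2.28% and 2.42%, and 1.87% ± 0.04 of TPM. 8 of them averaged 100 TPM or more and 10 less, the lowest at 3.92. H19 was at 9461 ± 361 TPM and ranked 3 among all genes by CPM. Igf2r ranked 10 and Mest ranked 16. Grb10, an adaptor that restrains growth signals, was at 867 ± 42.9 TPM, Plagl1 at 661 and Peg3 at 228. Igf2, the growth factor gene beside H19, was at 359 ± 31.4 TPM.

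Cdkn1c, an inhibitor of the cell cycle, was the least steady of those named here, at 1538 ± 254 TPM with a within-line CV of 18.1%. It was highest in PAS control 2 at 1872 and lowest in PAS control 3 at 1088, the same libraries that lay at opposite ends for Slc2a1 and Casq2. Fn1, the fibronectin gene, had the same ends, at 1192 and 736 TPM.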
